A study of Arabidopsis thaliana with 4 samples.

Results

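Of the 5110 loci that the gene column of the 4 comparisons names, 262 were named in both comparisons of light pattern and in neither comparison of light intensity, 5.13% of all named loci. The pattern comparisons set fluctuating light (FL) against square light (SQ), which is held constant through the day, within one intensity: SQH with FLH at high light and SQL with FLL at low light. The intensity comparisons set SQH with SQL and FLH with FLL. The 262 loci were selected on these calls of differentially methylated regions (DMRs), so the size and presence of their pattern differences are a description and carry no test. The members, and the groups of genes described, were chosen with results of these data already known.

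The 4 groups were SQH, SQL, FLH and FLL, all leaf tissue of Arabidopsis thaliana Col-0 wild type that had acclimated to its regime for 22 d. Each regime gave 1 bisulfite library, made from DNA pooled over several plants, so no difference has a replicate check and every interval given covers counting error only. The leaf is a mixture of cell types, and changes in cell composition and changes of methylation within cells cannot be told apart. SQH and FLH enter the high-light comparison and SQL and FLL the low-light comparison, so that these rest on separate libraries. The leaves were collected in the order SQH, SQL, FLH and FLL, so the order of collection and the light pattern cannot be told apart.

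In plants, cytosines are methylated in 3 sequence contexts, where H stands for A, C or T. CpG methylation is copied after replication by MET1 and occurs both along transposable elements (TEs) and within the bodies of many expressed genes. CpHpG methylation is kept up mainly by CMT3 together with histone H3 lysine methylation, and CpHpH methylation by CMT2 and by RNA-directed DNA methylation through DRM2, and both non-CpG contexts are mostly found at silenced TEs. Methylation of TEs is known for keeping them silent, whereas methylation within gene bodies has no settled role.

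The 262 loci held 648 regions, 311 in SQH against FLH and 337 in SQL against FLL. Of the loci, 174 had exactly 2 regions, 62 had 3, 20 had 4, 3 had 5, 2 had 6 and 1 had 7. Most regions (616) were a single bin of 150 bp, and the widest measured 900 bp. A level is the share of methylated among all reads over the cytosines of one context in a region, in percent, and a gain is a higher level in the fluctuating regime. The median number of reads per region and library was 72.5 for CpG (range 18 to 536), 90.5 for CpHpG (range 23 to 354) and 299 for CpHpH (range 72 to 1023).

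The regions that carry the comparisons of single loci are shown first, on the forward strand of TAIR10 and with the cytosines of the CpG context, on either strand, in capitals. They are those of the 2 loci that the study itself named, and, at 8 or more reads per cytosine, of loci that changed alike in both pattern comparisons or in opposite directions, ranked by the smaller of their differences. The first-ranked locus that changed alike, AT5G50940, is not shown because its region includes UTR sequence. Both regions of MCCA (AT1G03090, the biotin-carrying alpha subunit of the mitochondrial 3-methylcrotonyl-CoA carboxylase of leucine catabolism, chr1:739544-744184) have their midpoint in an intron. That of the low-light comparison, at chr1:742351-742500, holds 4 CpG cytosines, and that of the high-light comparison, at chr1:743701-743850, reaches into exon sequence annotated as UTR and is not shown. The region of AT1G27880, which encodes a DEAD/DEAH box RNA helicase, has its midpoint in an intron, at chr1:9712501-9712650.
MCCA, chromosome 1: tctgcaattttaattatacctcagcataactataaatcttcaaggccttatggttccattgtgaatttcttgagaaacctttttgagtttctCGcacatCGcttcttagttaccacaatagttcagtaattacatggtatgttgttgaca
AT1G27880, chromosome 1: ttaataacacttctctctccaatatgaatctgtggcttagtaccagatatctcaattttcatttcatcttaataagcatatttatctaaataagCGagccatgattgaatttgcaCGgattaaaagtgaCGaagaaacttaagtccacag

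Of the loci that changed alike, AT3G16560 encodes a protein phosphatase 2C (chr3:5637101-5637250, coding exon) and CRD1 (AT3G56940) a subunit of the Mg-protoporphyrin monomethyl ester cyclase of chlorophyll synthesis (chr3:21077651-21077800, coding exon). AT5G26286 is annotated as a pseudogene (chr5:9220655-9220804), and its window holds 14 CpG cytosines where the other 2 hold 6 each.
AT3G16560, chromosome 3: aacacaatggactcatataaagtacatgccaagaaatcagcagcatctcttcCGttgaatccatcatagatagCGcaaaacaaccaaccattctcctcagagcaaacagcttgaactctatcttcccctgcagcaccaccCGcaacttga
CRD1, chromosome 3: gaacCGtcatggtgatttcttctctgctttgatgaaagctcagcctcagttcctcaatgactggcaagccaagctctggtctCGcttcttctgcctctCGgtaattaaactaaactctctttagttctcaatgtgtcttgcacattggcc
AT5G26286, chromosome 5: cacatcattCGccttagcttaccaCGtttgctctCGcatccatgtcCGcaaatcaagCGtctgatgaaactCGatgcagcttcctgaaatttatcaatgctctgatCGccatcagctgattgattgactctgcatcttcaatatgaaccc

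Of the loci that changed in opposite directions, AT2G44640 encodes a TRIGALACTOSYLDIACYLGLYCEROL-like protein (chr2:18418751-18418900, midpoint in an intron). AT1G50180 encodes an NB-ARC domain-containing disease resistance protein (chr1:18584401-18584550, coding exon). Exon and intron are given by the midpoint of a region throughout. The CpG cytosines of AT2G44640 stand near the ends of its window, so the intron label does not place them.
AT2G44640, chromosome 2: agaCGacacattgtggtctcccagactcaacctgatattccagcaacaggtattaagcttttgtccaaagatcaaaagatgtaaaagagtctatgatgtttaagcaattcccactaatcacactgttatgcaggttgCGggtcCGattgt
AT1G50180, chromosome 1: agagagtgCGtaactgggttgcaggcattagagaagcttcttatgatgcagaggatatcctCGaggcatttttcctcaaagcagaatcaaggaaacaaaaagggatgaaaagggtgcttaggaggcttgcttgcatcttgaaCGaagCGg

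Most of the 262 loci were not ordinary genes. The RefSeq annotation of TAIR10.1 lists 169 of them (64.5%) as pseudogenes, the class in which it places genes within TEs, 88 (33.6%) as protein-coding and 3 as noncoding RNA, while 2 (AT2G13363 and AT4G22420) had no entry. Among all 5110 named loci 46.3% were pseudogenes and 52.0% protein-coding, and among the 593 loci named in both pattern comparisons and in at least 1 intensity comparison 70.8% and 28.3%. A TE name stood beside every region of 142 of the 169 pseudogenes and beside no region of 71 of the 88 protein-coding loci. The 5 chromosomes carried between 43 and 60 of the loci each.

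Most pseudogenes lay near the centromeres and most coding loci along the arms. Windows of 500 kb around each centromere with under 0.5 times the median density of protein-coding genes make up 14.7% of the 5 chromosomes, and they held 116 of the 169 pseudogenes (68.6%) and 12 of the 88 protein-coding loci (13.6%). For all named loci these shares were 64.4% and 8.02%, and for those with an added intensity call 54.3% and 8.33%. The rule did not use base composition either. The median GC content of CpG regions was 42.7% in pseudogenes here and 42.7% over all regions in pseudogenes, and 41.3% and 40% in protein-coding loci. CpG regions of protein-coding loci held a median of 8 cytosines per 150 bp, against 6 over all such regions.

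The direction of change depended on the context. Over all contexts 183 of 311 regions gained methylation in FLH (58.8%, 95% interval 53.3% to 64.2%), against 49.8% of all regions listed in that comparison, and 158 of 337 gained in FLL (46.9%, 41.6% to 52.2%), against 53.4%. This low-light share depended on the thresholds, as it was 57.1% under a stricter p-value threshold (0.001) and 81.9% with a CpG minimum of 40 points, which left almost no CpG region. In CpG, 55 of 150 regions gained in FLH (36.7%, 29.4% to 44.6%) beside 42.4% of all CpG regions, and 31 of 181 in FLL (17.1%, 12.3% to 23.3%) beside 22.4%. In CpHpG, 86 of 99 gained in FLH (86.9%, 78.8% to 92.2%) beside 78.6%, and 80 of 92 in FLL (87.0%, 78.6% to 92.4%) beside 82.8%. In CpHpH, 42 of 62 gained in FLH (67.7%, 55.4% to 78.0%) beside 44.7%, and 47 of 64 in FLL (73.4%) beside 73.3%. Among listed regions that carry a gene name, the CpG share was 41.2% at high light and 24.8% at low light. In the same order the CpHpG share was 82.7% and 87.1% and the CpHpH share 53.3% and 83.5%. Beside these, the CpG shares of the 262 loci were lower, and at low light the 24.8% lay above their interval. The CpHpG share was higher at high light and nearly equal at low light. In CpHpH the share of the 262 loci was above at high light and below at low light. These shares count regions that lie close together and share libraries, and no test was made of them.

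**Figure D1:**
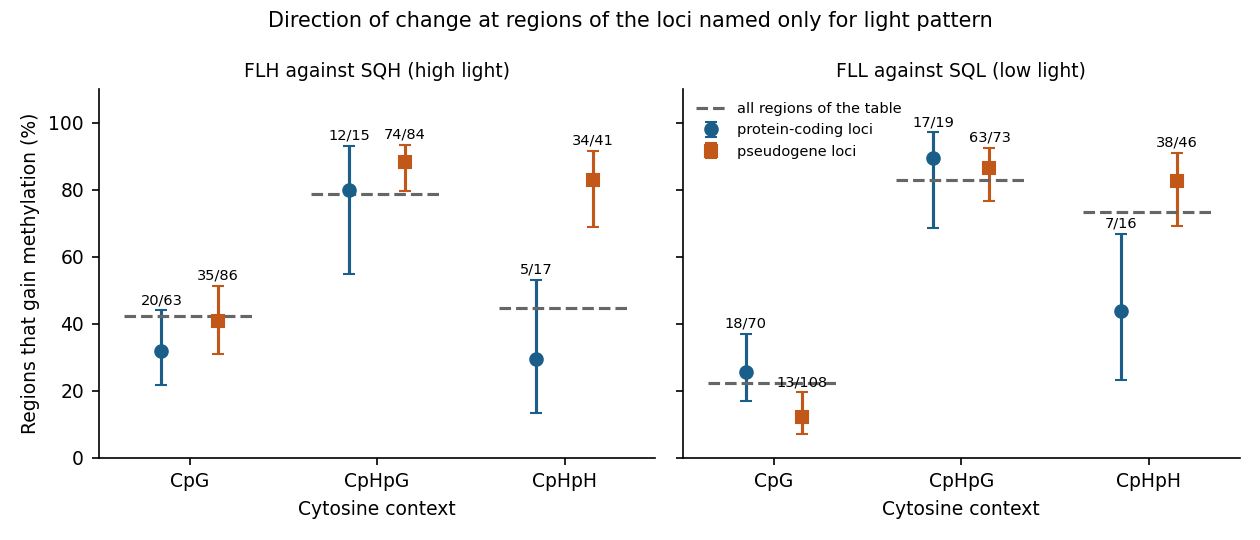
Share of regions that gained methylation in the fluctuating regime (y axis, percent) by cytosine context (x axis), for protein-coding loci (circles) and pseudogenes (squares) among the 262, with 95% Wilson intervals of counting error and the number of gains over regions printed above each; dashed lines give the share over all regions of the table. In CpHpH the pseudogenes gained at 34 of 41 and 38 of 46 regions and the protein-coding loci at 5 of 17 and 7 of 16.

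In pseudogenes CpG regions mostly lost and non-CpG regions mostly gained methylation, as in all listed regions of this class. At high light 74 of their 84 CpHpG regions and 34 of their 41 CpHpH regions gained, and at low light 63 of 73 and 38 of 46. Their CpG regions gained at 35 of 86 at high light and at 13 of 108 at low light. Over all listed regions in pseudogenes, gains made up 85.2% and 87.3% in CpHpG, 59.2% and 87.9% in CpHpH, and 39.0% and 11.9% in CpG, at high and low light, so that of these counts the one for CpHpH at high light lay apart from its class. The level of these CpG regions at low light had a median of 89.7% in SQL and 66.9% in FLL, and at high light of 80.5% in SQH and 70.1% in FLH. The CpHpG regions had medians of 31.9% in SQH and 53.8% in FLH and of 33.3% in SQL and 55.6% in FLL, and the CpHpH regions 12.2% in SQH and 20.3% in FLH and 8.95% in SQL and 17.7% in FLL. Over the CpHpH regions of all 262 loci the median was 14.5% in SQH and 19.8% in FLH, and this order turned to 14.6% and 8.83% at the 6 regions with 8 or more reads per cytosine. Each of these medians is taken over different regions in the 2 comparisons, so that SQH and SQL, or FLH and FLL, cannot be set against each other here.

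Protein-coding loci were mostly called in CpG (66.3% of their regions at high and 66.7% at low light), and 54 of the 88 had CpG regions only. All listed regions in protein-coding loci numbered 660 in CpG, 90 in CpHpG and 259 in CpHpH at high light. At low light they numbered 1389, 110 and 226. CpG thus led in the whole class too, and at low light more strongly than here. The CpG regions of the 88 loci lost methylation at 43 of 63 at high light and at 52 of 70 at low light. Their medians were 58.1% in SQH and 50.4% in FLH and 48.8% in SQL and 34.0% in FLL. Their few CpHpG regions gained (12 of 15 and 17 of 19). Their CpHpH regions gained at 5 of 17 at high light and at 7 of 16 at low light, a lower share than in pseudogenes in both comparisons. Over all listed regions in protein-coding loci, gains made up 43.3% and 32.5% in CpG, 66.7% and 87.3% in CpHpG, and 42.9% and 73.0% in CpHpH. By midpoint, 118 of the 200 regions of protein-coding loci lay in coding exons, 62 in introns, 12 in UTR exons and 7 across the edge of the locus, and 1 lay downstream. Of the 88, 40 lost methylation at every region, 17 gained at every region and 31 were mixed.

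The regions in TEs showed the same split between CpG and non-CpG methylation, as did all listed regions of the same families. Families whose name begins with ATHILA, long terminal repeat retrotransposons of the Gypsy type, held 122 regions in 50 loci, of which 47 of 60 CpG regions lost and 40 of 46 CpHpG regions and 13 of 16 CpHpH regions gained. The ATCOPIA families, of the Copia type, held 70 regions in 28 loci, with loss at 13 of 18 CpG regions and gain at 25 of 28 CpHpG and 20 of 24 CpHpH regions. The ATENSPM families, DNA transposons of the En/Spm type, held 48 regions in 23 loci, with loss at 20 of 24 CpG regions and gain at all 21 CpHpG and all 3 CpHpH regions. Over all listed regions of these families, wherever they lie, CpG was lost at 74.6% in ATHILA, 79.1% in ATCOPIA and 81.0% in ATENSPM. In the same order, CpHpG was gained at 86.8%, 85.9% and 85.0%, and CpHpH at 74.8%, 72.4% and 66.7%. In CpG and CpHpG the counts of the 262 loci are near those of the families as a whole, with ATENSPM in CpHpG above. In CpHpH the shares of the 262 loci were higher in all 3 families, over few regions.

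The VANDAL families, DNA transposons of the Mutator type, and the ATREP families, Helitrons, were less one-sided in CpHpH. VANDAL held 43 regions in 18 loci, and their CpHpH regions gained at 7 and lost at 8. ATREP held 10 regions in 6 loci, 9 of them in CpHpH, with 4 gains and 5 losses. Over all listed CpHpH regions, 57.3% gained in VANDAL and 56.6% in ATREP. Within the most frequent single family, ATHILA2 (41 regions), the reads summed over regions gave a CpG level of 83.6% in SQL and 67.3% in FLL at 12 regions and a CpHpG level of 39.0% in SQL and 62.0% in FLL at 6 separately called regions. At high light the same family had 81.6% in SQH and 70.5% in FLH at 11 CpG regions and 31.8% and 55.1% at 6 CpHpG regions.

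**Figure D2:**
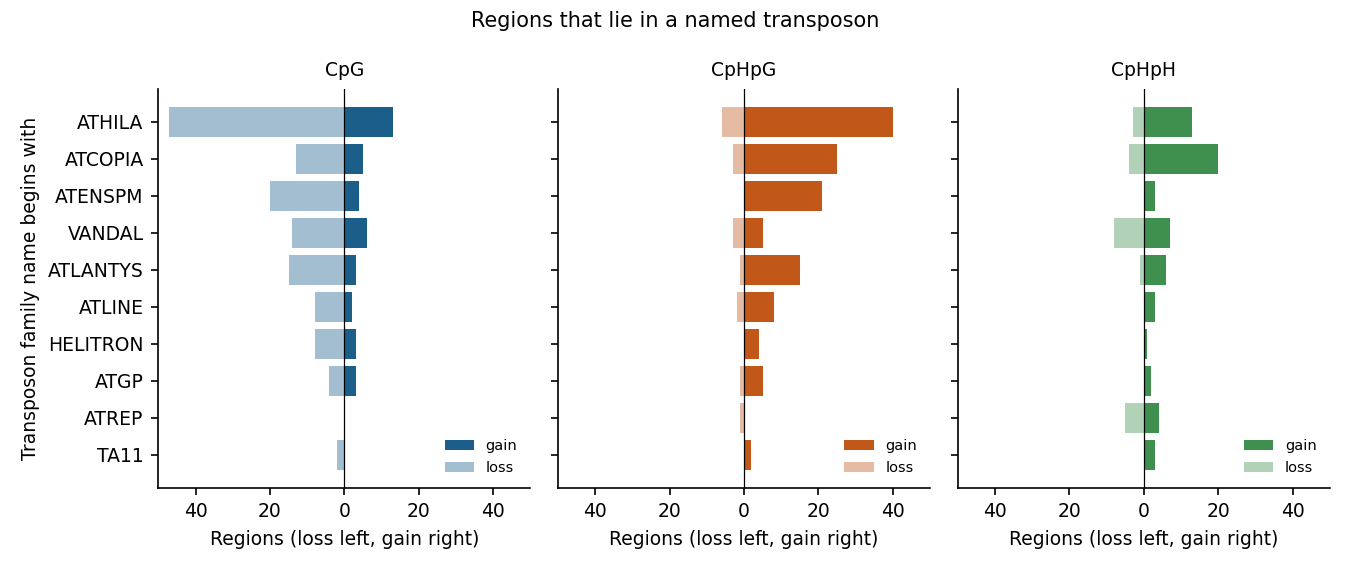
Number of regions of the 262 loci that gained (right of 0, solid) or lost methylation (left of 0, pale) in the fluctuating regime, in both pattern comparisons together, by the start of the TE family name (y axis, less frequent names left out) and by context (panels). Losses lead in CpG and gains in CpHpG for the larger groups, for example 47 losses and 13 gains in CpG and 6 losses and 40 gains in CpHpG for ATHILA.

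A locus could be named in both pattern comparisons without the same stretch of DNA changing in both, and this was the more common case. In 52 loci (19.8%) a region of the high-light comparison overlapped one of the low-light comparison in the same context, and in 45 of these (17.2% of all members) both changed in the same direction and in 7 in opposite directions. In a further 8 loci regions overlapped only across contexts. In 132 loci (50.4%) the comparisons shared a context without overlap, and in 70 (26.7%) they had no context in common. Where the nearest regions did not touch (162 loci), the gap between them had a median of 750 bp and ran from 150 to 3900 bp, and in 40 loci the regions adjoined. Overlap in the same context was found in 28 of the 88 protein-coding loci and in 22 of the 169 pseudogenes. The classes also differed in their contexts, with CpG regions only in 54 of the 88 and in 35 of the 169. Neither overlap nor a shared context was found in 9 of the 88 and in 60 of the 169. The same split by class was not made for other loci, so it is not shown to be particular to the 262. An identical region in both pattern comparisons was found at 40 of the 262 loci. It was found at 108 of the 593 loci that were also named in an intensity comparison, which held a median of 3 pattern regions per locus against 2 here. A lack of overlap was thus not particular to the 262 loci.

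Where regions of one context did not overlap, their directions followed that of the context. Of 85 such loci in CpG, 45 lost at every CpG region, 7 gained at every one and 33 were mixed. Of 39 in CpHpG, 33 gained at every region and 6 were mixed, and of 12 in CpHpH, 8 gained, 1 lost and 3 were mixed. Over all contexts 70 of the 262 loci gained at every region, 72 lost at every region and 120 were mixed.

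Regions of these loci that both comparisons listed mostly changed alike. At 40 loci the region was identical in both comparisons, and 34 of these 40 changed in the same direction (85.0%), against 287 of all 583 regions that both comparisons list (49.2%). By context the count was 13 of 19 in CpG beside 33.9% of all shared regions, 5 of 5 in CpHpG beside 88.2%, and 16 of 16 in CpHpH beside 50.7%. At the 109 identical regions of loci that were also named in an intensity comparison, 37 changed in the same direction, with 5 of 57 in CpG, 12 of 14 in CpHpG and 20 of 38 in CpHpH. The rule bears directly on this contrast. Where the pattern differences have opposite signs, the FLL minus FLH and SQL minus SQH differences must, by arithmetic, lie as far apart as the sizes of the pattern differences summed, and loci with a listed intensity difference were left out. The share of like directions is therefore set in part by the selection and is not an independent result.

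**Figure D3:**
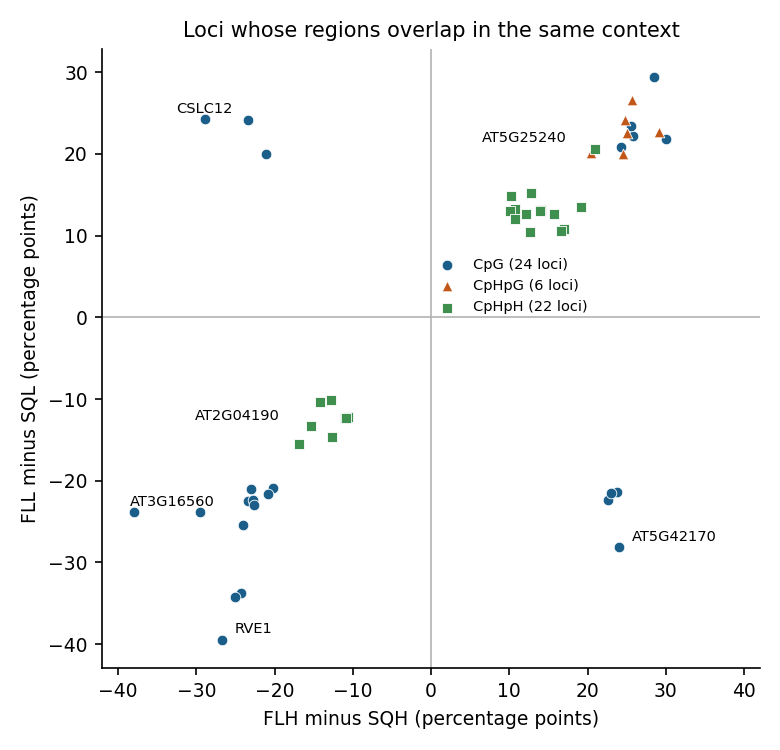
Difference in methylation level at high light (x axis, FLH minus SQH) and at low light (y axis, FLL minus SQL), in percentage points, at the 52 loci whose regions overlap in the same context; 1 point per locus, shaped by context. The empty band around 0 is the calling minimum of 20 points in CpG and CpHpG and 10 points in CpHpH, and 45 points lie in the quadrants of like direction and 7, all in CpG, in the others.

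The identical regions give a level in all 4 libraries. At 34 of the 40 the levels of SQH and SQL lay on one side of those of FLH and FLL, and at 17 of them the 95% intervals of the square regimes did not overlap those of the fluctuating regimes either. At the 34 regions of like direction the difference between SQL and SQH had a median size of 4.80 points and reached 21.5, and that between FLL and FLH 4.28 points and reached 13.2, while the pattern differences had median sizes of 21.8 points at high light and 20.8 at low light. The smaller intensity differences are what the rule selected. At the 6 regions of opposite direction, all CpG, SQL and SQH differed by a median of 31.1 points and FLL and FLH by 15.6.

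**Figure D4:**
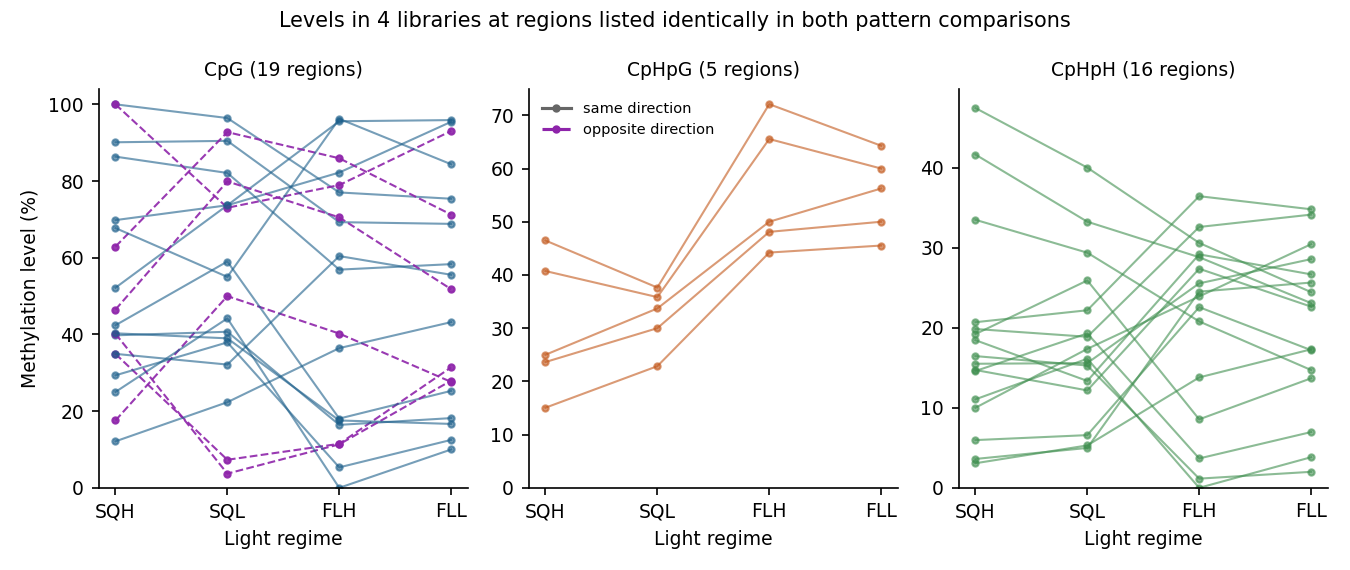
Methylation level (y axis, percent, with a separate scale per panel that starts at 0) in the 4 libraries (x axis) at the 40 regions listed identically in both pattern comparisons, 1 line per region, by context. Solid lines are the 34 regions that changed in the same direction and dashed lines the 6 that did not, and all 5 CpHpG lines are higher in FLH and FLL than in SQH and SQL.

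The absence of an intensity call does not mean the same in every context. The CpG regions listed for SQH against SQL all differ by at least 40.2 points, whereas the other comparisons list CpG regions from 20 points, and 327 of the 331 CpG regions of the 262 loci had pattern differences below 40.2 points. Of the 19 identical CpG regions, 7 differed by 20 points or more between SQH and SQL, and in the other contexts and between FLH and FLL none reached its minimum. CSLC12 (AT4G07960), a cellulose-synthase-like protein, shows the case: its CpG level at chr4:4805501-4805650 was 40.2% in SQH and 3.70% in SQL against 11.3% in FLH and 28.0% in FLL. None of the 648 regions overlapped any region of the intensity comparisons, and none of the 260 annotated loci held one within its span. The rule left out every locus that the gene column names for intensity, so these counts follow largely from the selection.

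The edges of the rule were narrow. At least 1 region within 1 point of the minimum difference was found in 92 of the 262 loci. Just inside stood CPK23, a calcium-dependent protein kinase, whose CpG level at low light was 21.7% in SQL and 1.67% in FLL (a difference of -20 points), and AT3G19560, an F-box protein, with a CpHpG level of 30% in SQL and 50% in FLL. Of the loci named in both pattern comparisons, 298 were left out through exactly 1 intensity region, 204 of them in FLH against FLL, and in 50 of the 298 that region lay within 1 point of the minimum. Just outside stood AT4G03780, with a CpHpG level of 33.9% in FLH and 53.9% in FLL, and AT5G30276, with a CpHpH level of 12% in FLH and 22.0% in FLL, both pseudogenes.

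MCCA was the only one of 87 genes in fixed lists of light signalling, circadian clock, photoprotection, DNA methylation and leucine catabolism that belonged to the 262 loci, and 20 of the 87 were named in any comparison, beside 9.68% of all protein-coding loci of the annotation. A count of 1 among these 20 is near the 5.13% of all named loci that belong to the 262, so it says nothing particular about the lists. The list of leucine catabolism was included because the study names MCCA, and 3 of its 16 genes were named in any comparison, against 8 of 24 for DNA methylation, 3 of 11 for the clock, 6 of 23 for light signalling and 0 of 13 for photoprotection. The 2 regions of MCCA lie 1200 bp apart and changed in opposite directions. At high light the CpG level was 89.8% in SQH (79.5% to 95.3%, 53 of 59 reads) and 63.6% in FLH (51.6% to 74.2%, 42 of 66). At low light the other region had 62.5% in SQL (47.0% to 75.8%, 25 of 40 reads) and 100% in FLL (89.3% to 100%, 32 of 32). FLH was thus below SQH at one region and FLL above SQL at the other, and neither region was listed in the other comparison.

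AT1G27880, by contrast, was listed at 1 identical intronic region and lost CpG methylation in both. Its level was 86.4% in SQH (73.3% to 93.6%, 44 reads) and 82.1% in SQL (73.2% to 88.5%, 95 reads) against 56.9% in FLH (44.1% to 68.8%, 58 reads) and 58.3% in FLL (46.8% to 69.0%, 72 reads). The intervals of the square regimes lay above those of the fluctuating regimes.

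Some genes with products in or on the chloroplast are described together, chosen after their values were seen and from no fixed list. CRD1, LOX2, LHCA2 and CHUP1 lost CpG methylation in both pattern comparisons, whereas EMB2768 and AT2G44640, described further on, changed in opposite directions. CRD1 had 39.8% in SQH and 40.7% in SQL against 16.4% in FLH and 18.2% in FLL at an identical region in a coding exon. Its pattern differences of -23.4 and -22.5 points were accompanied by intensity differences of 0.925 points in square and 1.76 in fluctuating light. LOX2 (AT3G45140), the chloroplast lipoxygenase that starts jasmonate synthesis, had 42.4% in SQH and 59.0% in SQL against 18.1% in FLH and 25.3% in FLL, and a second region of the gene fell from 57.8% in SQL to 36.1% in FLL.

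LHCA2 (AT3G61470), an antenna protein of photosystem I, carried adjoining CpG regions at the same exonic stretch. They had 62.2% in SQH and 39.8% in FLH, and 68.1% in SQL and 43.3% in FLL, and CpHpG methylation within the second was 35.9% in SQL and 8.47% in FLL. CHUP1 (AT3G25690), which anchors chloroplasts to actin during their movement, lost CpG methylation at 2 distant regions. One had 26.4% in SQH and 4.58% in FLH and the other 84.8% in SQL and 61.9% in FLL. The other groups of protein-coding loci were also chosen after their values were seen, and 40 of the 88 protein-coding loci lost at every region.

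Genes of transcription and RNA processing also stood among those that lost at overlapping regions. RVE1 (AT5G17300), a MYB-like transcription factor that links the circadian clock to auxin, was chosen after its values were seen and was not in the clock list. Its CpG level was 44.7% in SQH (39.6% to 50%, 351 reads) and 18.0% in FLH (14.4% to 22.2%, 372 reads) over a region of 900 bp, and 50.5% in SQL (41.0% to 59.9%) and 11.0% in FLL (6.68% to 17.7%) over a bin within it. ABO1 (AT5G13680), a subunit of the Elongator complex of transcription and tRNA modification, had 40.3% in SQH and 39.0% in SQL against 17.6% in FLH and 16.7% in FLL.

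RNL (AT1G07910), the tRNA ligase that acts in tRNA splicing, lost at separate introns, with 81.8% in SQH and 51.4% in FLH and with 95.9% in SQL and 66.7% in FLL. AT5G50940, an RNA-binding KH domain protein, lost across the edge of its locus and had 29.3% in SQH and 37.9% in SQL against 5.33% in FLH and 12.5% in FLL. AT3G16560 had the widest loss at high light among the overlapping regions, from 63.3% in SQH to 25.4% in FLH, and 47.5% in SQL and 23.6% in FLL over a region of 3 bins. PRP40B (AT3G19670), a splicing factor, was mixed, with 59.3% in SQH and 83.1% in FLH at one region and 61.7% in SQL and 34.4% in FLL at another.

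**Figure D5:**
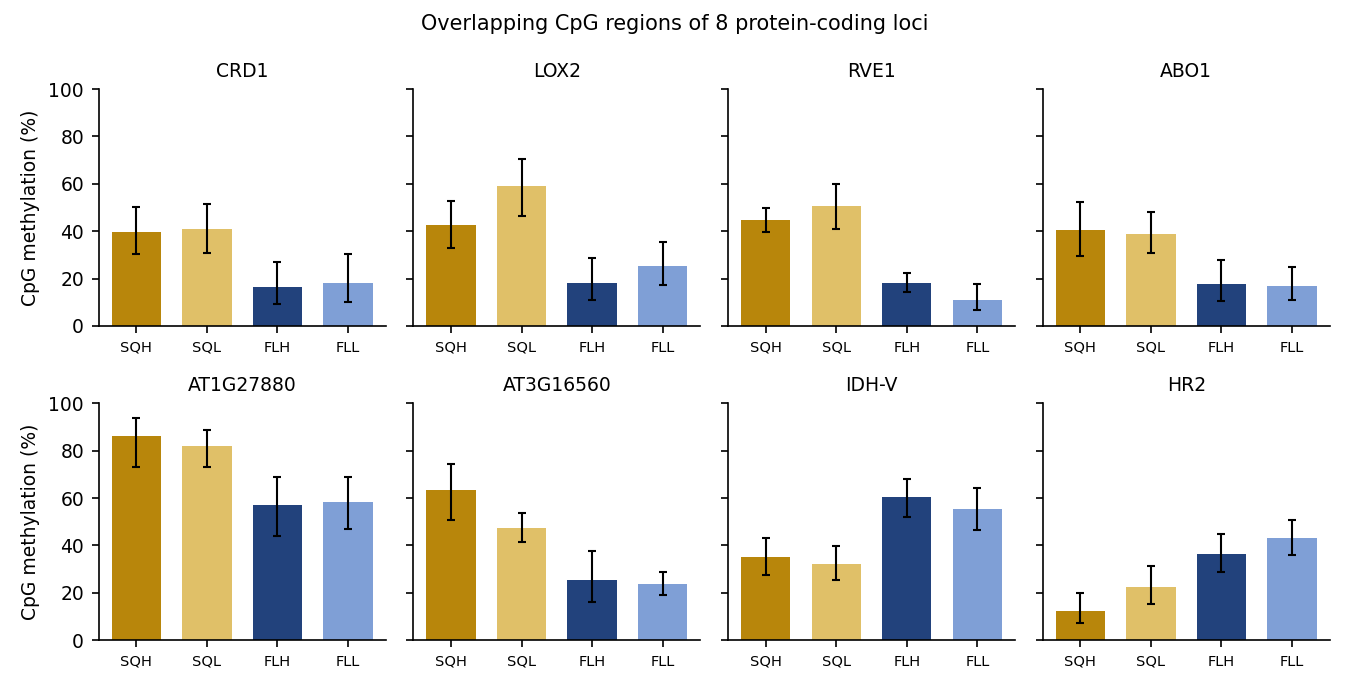
CpG methylation level (y axis, percent) in the 4 libraries (x axis) at the overlapping regions of 8 protein-coding loci; bars are levels of 1 library each and error bars 95% Wilson intervals of the reads. CRD1, LOX2, RVE1, ABO1, AT1G27880 and AT3G16560 are lower in FLH and FLL and IDH-V and HR2 higher; for RVE1 and AT3G16560 the regions of the 2 comparisons differ in width.

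Metabolic genes changed both ways. IDH-V (AT5G03290), a catalytic subunit of the mitochondrial NAD-dependent isocitrate dehydrogenase, gained at an identical exonic region, with 34.9% in SQH and 32.1% in SQL against 60.4% in FLH and 55.6% in FLL, while an intron of the gene fell from 29.8% in SQL to 2.50% in FLL. SAM1 (AT1G02500), which makes the methyl donor S-adenosylmethionine, lost at separate regions of its coding exon by the same amount, from 60.8% in SQH to 36.9% in FLH and from 48.6% in SQL to 24.7% in FLL. Outside metabolism, HR2 (AT3G50460), a homologue of the RPW8 resistance genes, gained at an identical region, with 12.1% in SQH and 22.3% in SQL against 36.4% in FLH and 43.2% in FLL.

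Of 4 ABC transporters, 2 lost in both comparisons. ABCG14 (AT1G31770), known for root-to-shoot transport of cytokinin, had 52.7% in SQH and 26.2% in FLH and, 600 bp on, 55.3% in SQL and 26.4% in FLL. ABCB13 (AT1G27940) had 73.3% in SQH and 52.3% in FLH and, in the adjoining bin, 37.3% in SQL and 11.9% in FLL. ABCC13 (AT2G07680) gained CpHpG methylation at each of its 3 regions, from 20.6% in SQH to 52.1% in FLH and from 20% and 32.1% in SQL to 42.6% and 58.1% in FLL. ABCA3 (AT3G47740) was mixed, with 31.1% in SQH and 5.80% in FLH but 17.2% in SQL and 51.5% in FLL at another exon.

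Genes of the actin cytoskeleton were no more uniform. VLN1 (AT2G29890), an actin-bundling villin, lost from 76.0% in SQH to 53.2% in FLH and from 76.4% in SQL to 47.9% in FLL. ARPC1B (AT2G31300), a subunit of the Arp2/3 complex, gained from 39.0% in SQH to 67.3% in FLH and from 19.4% in SQL to 52.6% in FLL. The formin AT2G25050 held adjoining bins of opposite direction at high light, with 0% in SQH (0 of 40 reads) and 25.6% in FLH in one and 59.4% in SQH and 20.9% in FLH in the next. A further region of the gene rose in CpHpG from 40.6% in SQH to 67.2% in FLH. Its 1 region at low light fell in CpG from 41.7% in SQL to 19.5% in FLL.

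The loci without overlap that ranked first in CpG at 8 or more reads per cytosine, beside RNL, changed in other ways. AT2G04305, a CorA-like magnesium transporter, fell from 44.9% in SQH to 4.21% in FLH in a UTR exon and rose from 7.89% in SQL to 37.1% in FLL in a coding exon 1350 bp away. The pseudogene AT4G07510, in a HELITRON5 element, gained in adjoining bins, from 55.6% in SQH to 85.7% in FLH and from 63.0% in SQL to 93.8% in FLL. AT5G26286, the pseudogene in an ATCOPIA41 element whose sequence is shown, lost at overlapping regions of different width. Its level was 67.3% in SQH and 44.7% in FLH over chr5:9220505-9220804, and 69.3% in SQL and 46.3% in FLL over the narrower window shown. A further bin fell from 67.4% in SQH to 27.0% in FLH.

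In CpHpH, the largest matching differences were at AT5G25240, annotated as a stress induced protein, in a UTR exon, where the tables name an ATREP1 element at high light and an ATREP3 element at low light. Its level was 3.61% in SQH (1.76% to 7.26%, 194 reads) and 4.98% in SQL (3.04% to 8.06%, 301 reads) against 24.5% in FLH (20% to 29.6%, 306 reads) and 25.6% in FLL (20.8% to 31.1%, 273 reads). The noncoding RNA locus AT4G04221 gained as well, with 10% in SQH and 17.4% in SQL against 23.9% in FLH and 30.4% in FLL. At AT2G41600, a mitochondrial glycoprotein family gene, a region of 300 bp had 19.8% in SQH and 18.9% in SQL against 32.6% in FLH and 34.1% in FLL.

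Loss of CpHpH methylation at overlapping regions was seen at 8 loci, against gain at 14. AT2G04190, a TRAF-like family gene, had 16.5% in SQH and 15.3% in SQL but 1.15% in FLH and 2% in FLL, in an intron with an ATHATN10 element. AT5G34885 had 11.1% in SQH and 16.1% in SQL against 0% in FLH (0 of 195 reads, with an upper bound of 1.93%) and 3.83% in FLL. The pseudogene AT5G42565 had 14.6% in SQH and 19.3% in SQL against 3.67% in FLH and 6.97% in FLL. At these 3 loci the levels of the fluctuating regimes lay between 0% and 6.97%.

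In CpHpG all 6 overlapping loci gained. AT2G05475, a pseudogene in a VANDAL1 element that lost CpHpG methylation in the next bin at low light, had 15.1% in SQH and 22.9% in SQL against 44.2% in FLH and 45.5% in FLL, and AT1G42727, in an ATENSPM6 element, 40.7%, 35.8%, 65.5% and 60.0% in the same order. Of the loci without overlap, the largest gains in both comparisons at 8 or more reads per cytosine were in AT3G42182, AT3G32894 and AT3G29225, all pseudogenes. AT3G42182 had 28.6% in SQH and 57.9% in FLH and, 1200 bp away, 23.0% in SQL and 50% in FLL.

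The locus with the most regions was AT5G19165, a pseudogene in an ATCOPIA90 element, with 7. Of its 3 CpHpG regions, which all gained, those that overlapped had 44.3% in SQH, 64.7% in FLH, 47.8% in SQL and 67.9% in FLL. Its 3 CpHpH regions at high light gained, by 10.7, 11.2 and 10 points, while the 1 at low light fell from 17.2% in SQL to 6.91% in FLL. AT4G17450, in an ATCOPIA1 element, had 6 regions, of which the 5 non-CpG regions gained and the 1 CpG region fell from 89.2% in SQL to 57.1% in FLL. AT1G27570, a phosphatidylinositol 3- and 4-kinase family gene with 6 regions, gained at 4 of its 5 non-CpG regions. AT2G15870, in an ATCOPIA38 element, gained at all 5 of its regions, all of them non-CpG, and AT3G44096 gained at its 4 regions at low light and fell from 55.3% in SQH to 33.6% in FLH at its 1 CpHpG region at high light.

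The 7 loci of opposite direction were all in CpG and 5 were protein-coding. AT5G42170, a SGNH hydrolase-type esterase, had the most reads per region among them, but over 18 cytosines, with a smallest depth of 7.89 reads per cytosine. Its level was 46.5% in SQH (38.5% to 54.7%, 142 reads), 70.5% in FLH (63.7% to 76.6%, 190 reads), 79.9% in SQL (74.0% to 84.8%, 209 reads) and 51.8% in FLL (44.8% to 58.7%, 195 reads). EMB2768 (AT3G02660), an organellar tyrosyl-tRNA synthetase, was fully methylated in SQH (100%, 95.1% to 100%) and had 78.9% in FLH, 73.0% in SQL and 93.1% in FLL. AT2G44640 had 34.9% in SQH, 11.5% in FLH, 7.32% in SQL and 31.4% in FLL, and AT1G50180 had 17.6%, 40.2%, 50% and 27.6% in the same order. At each of the 4 loci SQH and SQL differed by 27.0 points or more.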

How the data were processed

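Whole-genome bisulfite sequencing of 4 leaf libraries, 1 per light regime, was processed by the authors with Trimmomatic 0.39, Bismark and Bowtie2 against TAIR10, per the labels. The authors called DMRs with DMRcaller in bins of 150 bp, with a p-value of at most 0.01, at least 4 cytosines and 4 reads per cytosine, and a minimum difference of 20 points in CpG and CpHpG or 10 in CpHpH. The deposited tables hold, for each called region, the counts of methylated and total reads per library, which the authors summed without normalization. They also hold the methylation levels as fractions, the p-value of each region as the authors deposited it, the number of cytosines, and the names of genes, TE loci and TE families. The CpG regions of the SQH against SQL table start at 40.2 points.

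The levels and differences were recomputed from the counts. Regions were counted once per position, context and gene name, since the SQH against SQL table lists some repeatedly. The reads of each library were identical wherever 2 tables list the same region. All 608 distinct regions of the 262 loci had the cytosine number of the TAIR10.1 sequence. Classes and positions came from the RefSeq annotation of TAIR10.1, by the midpoint of a region. Overlap meant at least 1 bp. Intervals are Wilson 95% intervals, for counting error only, and reads of neighbouring cytosines are not independent. No test was made, because there is 1 library per regime and the loci were chosen by the values. The members and gene lists were chosen with earlier results of these data known.

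Named were MCCA and AT1G27880, the overlapping loci with at least 8 reads per cytosine and the largest smaller difference (up to 12 of like and 6 of opposite direction), 3 loci without overlap per context at that depth (none qualified in CpHpH), the 5 loci with the most regions and members of the fixed lists. Other genes were named after their values were seen. The alternatives changed the p-value (0.001), the coverage (8 reads per cytosine), the CpG minimum (40 points), the naming rule, the overlap and the unit counted. The counting of members and overlaps was tested on simulated data. Python 3.11.15, numpy 2.4.6, pandas 2.3.3 and matplotlib 3.10.9 were used. Regions that were not called were not analysed here.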

Additional observations from a re-analysis of the deposited data

Results flagged for a closer look

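At 7 loci the change from square to fluctuating light had opposite signs at high and at low light in the same stretch of DNA, all in CpG. The low-light difference (FLL minus SQL) minus the high-light difference (FLH minus SQH) was 53.1 points at CSLC12, 47.6 at AT2G44640 and 41.1 at EMB2768, where fluctuating light was lower at high and higher at low light. It was -52.2 points at AT5G42170, -45.2 at AT2G13260, -45.0 at AT1G50180 and -44.5 at AT5G32505, where the reverse held. With 1 library per regime the difference between the 2 effects was not tested. The calls of both comparisons selected these loci. At the 6 of them with an identical region in both comparisons, all but AT2G13260, SQL and SQH differed by 27.0 to 36.5 points, below the 40.2 points from which CpG regions are listed for SQH against SQL.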

How the results depend on the processing

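The number of loci depended on the thresholds. It was 262 as reported, 124 at a p-value of 0.001, 73 at 8 reads per cytosine and 113 with a CpG minimum of 40 points in all tables, of which 76, 51 and 96 were among the 262. In the same order, overlap in the same context was found in 24, 11 and 31 loci in place of 52, and like direction at 0.001 and at 8 reads in 21 and 8 in place of 45. Requiring 1 shared context (188 loci) or leaving out loci also through TE names listed for intensity (209) kept the counts of loci and overlaps within 1.5 times, as did identical positions and overlap in any context.

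The share of regions that gained at high light (58.8%) moved to 79.7% with the CpG minimum of 40 points, and that at low light (46.9%) to 81.9%, because only 1 CpG region was left (0.355% in place of 51.1%). At low light it was 57.1% at a p-value of 0.001 and 40.5% with each locus counted once. The share in CpG was 37.9% at 0.001, 62.2% at 8 reads, 55.4% with loci also left out through TE names and 42.7% per locus. The share with a TE name (65.0%) was 70.3% at 0.001, 52.6% at 8 reads, 76.6% with the CpG minimum, 59.8% in 1 shared context, 55.2% with loci also left out through TE names and 59.9% per locus.

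Median levels in CpHpG stayed within their intervals under summed reads and under 8 reads per cytosine. Summed reads gave CpG levels of 57.3% in FLH, 70.7% in SQL and 53.8% in FLL in place of 64.6%, 83.2% and 62.3%. At 8 reads per cytosine the CpG medians were 59.1% in SQH, 53.1% in FLH, 68.7% in SQL and 57.6% in FLL, and the CpHpH median of FLH was 8.83% over 6 regions in place of 19.8%, below the 14.6% of SQH at the same regions, so that the high-light gain turned to a loss. The causes were not tested. Depth limits all of this, since at a median of 72.5 reads a CpG level carries a wide counting interval and 92 loci have a region within 1 point of the minimum difference. No paired analysis was possible because each regime has 1 library and the labels carry no replicate numbers.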
